A study of Homo sapiens with 22 samples.

Results

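WDR5 binding was compared between 2 human neuroblastoma cell lines, CHP-134 and IMR-32, by chromatin immunoprecipitation and sequencing (ChIP-seq), from 3 WDR5 peak lists of CHP-134 cells and 2 of IMR-32 cells. These 5 lists belong to the 22 samples of the series, of which 16 had a peak list. Peaks of the 5 lists that shared at least 1 bp were merged into 6588 sites. A core site had a peak in all 5 lists (478 sites, 7.26% of all sites). A CHP-134-only site was listed in all 3 CHP-134 libraries and in neither IMR-32 library (219 sites, 3.32%), and an IMR-32-only site was listed in both IMR-32 libraries and in none from CHP-134 (218 sites, 3.31%). The remaining 5673 sites were listed in some libraries only.

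Both lines were established from human neuroblastoma and carry an amplified MYCN gene, which encodes N-MYC. The CHP-134 cells had been kept for 4 h in the solvent DMSO, as the control arm of a compound treatment, whereas the IMR-32 cells were untreated. The same anti-WDR5 antibody was used in both lines, and each library pooled 3 immunoprecipitations. CHP-134 libraries were sequenced as single reads and IMR-32 libraries as read pairs on another instrument, so cell line, DMSO and sequencing run cannot be told apart in any comparison below. Each line stands for 1 tumor, and the study's methods state that the experiments were repeated independently, without saying whether each replicate was a separate culture, so the p-values measure only the spread between these libraries.

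WDR5 is a WD-repeat protein that forms, with RBBP5, ASH2L and DPY30, the WRAD module of the MLL/SET1 histone H3 lysine 4 methyltransferases, and it is also a subunit of the NSL acetyltransferase complex. It is known to bind a conserved group of genes, many of which encode proteins of the ribosome, and to help MYC proteins bind chromatin there. N-MYC pairs with MAX and binds E-boxes, of which CACGTG is the preferred form.

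The sequences below give examples of the classes. Each is centered on the median of the summits in the libraries that listed the site. This median summit also centered the motif windows of the classes. Each run below covers 101 bases of GRCh37/hg19, read 5′ to 3′ on the strand of the named gene, and none overlaps an annotated exon. Capitals mark CACGTG, the E-box, and GGGCGG, the core of the GC box that SP1-family factors bind, on either strand (CCGCCC is the reverse complement of GGGCGG). The first group shows core sites at RPL5 (chr1:93297686-93297786, plus strand) and RPS3 (chr11:75110663-75110763, plus strand), 2 genes of ribosomal proteins, and at EEF2 (chr19:3985266-3985366, minus strand), the translation elongation factor. They stood near the top of all 5 lists and held neither motif in these windows.
RPL5: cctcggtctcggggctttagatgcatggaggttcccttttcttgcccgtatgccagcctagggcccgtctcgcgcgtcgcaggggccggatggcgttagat
RPS3: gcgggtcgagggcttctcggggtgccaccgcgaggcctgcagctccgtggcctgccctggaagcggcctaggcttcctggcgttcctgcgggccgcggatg
EEF2: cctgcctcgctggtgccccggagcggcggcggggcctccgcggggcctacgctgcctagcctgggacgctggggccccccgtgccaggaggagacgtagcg
The CHP-134-only sites are shown by RNF130 (chr5:179499214-179499314, minus strand), the strongest of them, MAGED2 (chrX:54834895-54834995, plus strand) and TASOR2 (chr10:5726440-5726540, plus strand).
RNF130: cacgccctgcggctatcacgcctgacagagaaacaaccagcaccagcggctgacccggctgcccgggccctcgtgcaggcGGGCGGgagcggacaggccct
MAGED2: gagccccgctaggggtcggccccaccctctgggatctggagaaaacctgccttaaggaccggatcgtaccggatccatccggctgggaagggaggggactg
TASOR2: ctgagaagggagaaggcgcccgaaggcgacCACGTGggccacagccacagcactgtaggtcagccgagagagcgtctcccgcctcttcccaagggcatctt
The IMR-32-only sites are shown by OAZ2 (chr15:64995053-64995153, minus strand) and ZNF665 (chr19:53696421-53696521, minus strand).
OAZ2: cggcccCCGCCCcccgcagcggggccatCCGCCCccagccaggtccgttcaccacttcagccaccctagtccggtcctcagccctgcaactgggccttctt
ZNF665: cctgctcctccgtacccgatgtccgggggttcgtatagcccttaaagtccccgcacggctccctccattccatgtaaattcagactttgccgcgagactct
The last group shows core sites that were called different between the 2 lines in quantile-normalised fold. With percentiles none of them was called. EIF4G1 (chr3:184032598-184032698, plus strand) and DHX40 (chr17:57642758-57642858, plus strand) stood higher in CHP-134 cells and held an E-box. TEX2 (chr17:62341023-62341123, minus strand) stood higher in IMR-32 cells and held none. EIF4G1 and DHX40 do not stand for their group, since most sites called higher in CHP-134 cells held no E-box. CACGTG lay within 100 bp of the summit at 6 of those 20 sites, and at none of the 16 called higher in IMR-32 cells. Over all core sites the share was 15.5%, so these are differences of a few sites.
EIF4G1: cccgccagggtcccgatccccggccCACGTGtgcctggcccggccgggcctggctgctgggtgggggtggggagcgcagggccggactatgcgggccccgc
DHX40: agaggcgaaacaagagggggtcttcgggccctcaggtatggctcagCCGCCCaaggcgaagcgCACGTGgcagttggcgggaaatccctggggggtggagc
TEX2: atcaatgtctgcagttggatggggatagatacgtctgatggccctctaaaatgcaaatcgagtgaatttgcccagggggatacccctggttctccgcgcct

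The lists differed in length. CHP-134 replicates 1, 2 and 3 listed 4891, 1758 and 1671 peaks, and IMR-32 replicates 1 and 3 listed 1693 and 1258. CHP-134 replicate 1 stood apart, since 2999 of the sites, 61.3% of its list, were in that list alone, against 10.4% to 27.2% of the other lists. Without it there were 483 core, 251 CHP-134-only and 338 IMR-32-only sites. The line-only counts also rested on the other libraries. Without CHP-134 replicate 2 or 3 there were 448 or 560 CHP-134-only sites, and without IMR-32 replicate 1 or 3 there were 353 or 604 IMR-32-only sites, whereas the core count stayed between 483 and 559 over the 5 omissions. A further 143 sites were in both IMR-32 lists and 2 of the 3 CHP-134 lists, and 75 were in all CHP-134 lists and 1 IMR-32 list. The read depth behind the lists is unknown, so a site outside a list was not called there, which is not a measurement that WDR5 was absent.

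Core sites had high median ranks in every list, although some ranked low. A rule that asks for a peak in all 5 lists is met more easily by strong peaks, so the ranks of the classes are a description. Strength was taken as the percentile of a peak's fold enrichment over local background among all peaks of its own list, since the scale of the fold differed between the lines. The median fold over all peaks was 4.33, 5.04 and 4.94 in CHP-134 replicates 1, 2 and 3, and 6 and 7 in IMR-32 replicates 1 and 3. The highest fold was 91.8, 78.3 and 100.1 in the CHP-134 lists, against 307.3 and 276.9 in the IMR-32 lists. At core sites the median percentile was 94.1, 84.3 and 82.9 in CHP-134 replicates 1, 2 and 3, and 84.2 and 79.0 in IMR-32 replicates 1 and 3. The CHP-134 value of replicate 1 lay above all others and the ranges of the 2 lines overlapped (87.1 ± 6.13, SD, n = 3, against 81.6 ± 3.70, n = 2, exact permutation test, two-sided, p = 0.5, where 0.1 is the smallest p that 3 against 2 libraries can give). A percentile also depends on the length of its list. With as many of the strongest peaks from each list as the shortest held, the means were 85.6 and 85.4. The difference was then 0.265, over the 342 core sites of that setting. Single core sites reached down to percentiles of 0.370 to 3.96 in the 5 full lists. Sites of 1 line alone had lower medians. CHP-134-only sites had median percentiles of 75.4, 48.6 and 46.3 in the 3 CHP-134 lists, and IMR-32-only sites 47.6 and 36.0 in the IMR-32 lists. In the top 10% of each list, core sites made up 94.9% to 99.2% of the sites in 4 lists and 60.7% (297 of 489) in CHP-134 replicate 1. CHP-134-only sites reached the top 10% 50 times in CHP-134 replicate 1 and 4 times in each of replicates 2 and 3. No IMR-32-only site reached it in either IMR-32 list. The top 10% grows with the list: it held 489 sites in CHP-134 replicate 1, more than the 478 core sites. In the other lists it held 126 to 176 sites, so these shares and counts are not alike in scale between lists.

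**Figure D1:**
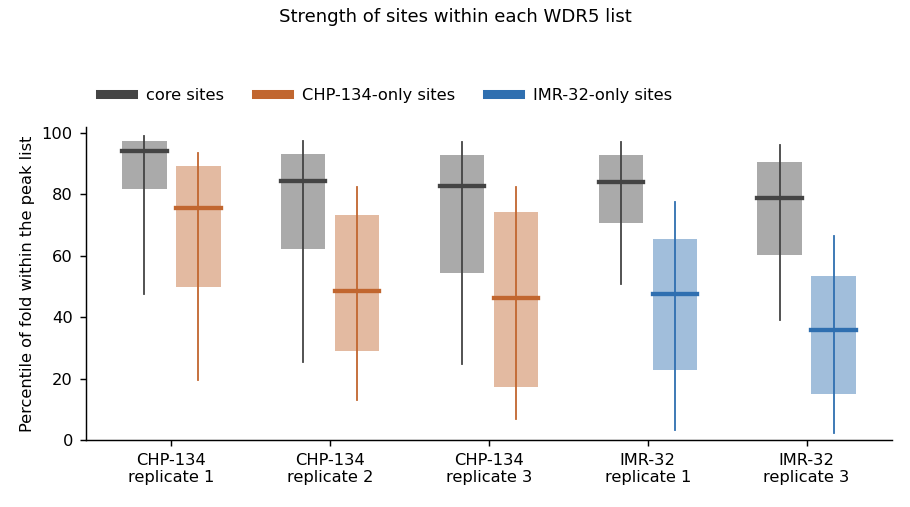
Percentile of fold enrichment within each WDR5 peak list (vertical axis, 0 to 100) for core, CHP-134-only and IMR-32-only sites in the 5 libraries. Thick lines are medians, boxes span the quartiles and thin lines the 10th to the 90th percentile of the sites; core medians lay between 79.0 and 94.1 and line-only medians between 36.0 and 75.4.

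The 12 highest core sites, by the mean over both lines, lay at RPL5, BRD2, NACA, MIR3677HG with RNPS1, EEF2, RPL15, RPL29, SNRPB, RPS3, RPS10, PRRC2A and EEF1G. The highest was RPL5 (chr1:93297240-93298534, middle of the site in intron 1), a protein of the large ribosomal subunit. It stood at percentiles of 99.4, 98.5 and 99.9 in CHP-134 cells. In both IMR-32 lists it stood at 100 and was the strongest peak of all. BRD2, a bromodomain protein that reads acetylated histones, had the widest of these sites (chr6:32937826-32941346, 3521 bp) and percentiles of 99.1, 98.6 and 99.1 in CHP-134 and 99.9 and 99.1 in IMR-32 cells. NACA, a subunit of the complex that meets nascent chains at the ribosome, reached 99.8, 98.7 and 99.2 against 98.8 and 99.4. The remaining 9 of these sites had percentiles of 96.7 or more in every library. They included EEF2 (chr19:3984129-3985921), EEF1G, an elongation factor subunit, SNRPB, a core protein of the spliceosomal snRNPs, and RNPS1 (chr16:2317326-2318965), a splicing activator that shares its site with the microRNA host gene MIR3677HG.

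Genes of cytosolic ribosomal proteins were found at core sites more often than protein-coding genes at large. A gene was counted at a site when one of its transcription start sites (TSSs) lay within 1 kb of the middle of the site, and 2.47% of 20098 protein-coding genes had a core site by that rule. A gene with several sites was counted once, under core before CHP-134-only before IMR-32-only. Of 47 genes of large-subunit proteins, 34 (72.3%) had one, and of 33 of small-subunit proteins, 14 (42.4%), so 48 of 80 in all. The count was 47 with a limit of 500 bp and 48 with 2 kb. None of the other 32 had a line-only site, and RPL36 had, beside its core site, a CHP-134-only site at a more upstream TSS (chr19:5680915-5682048, at percentiles of 91.1, 85.9 and 42.8). The lists were chosen with earlier results of the same libraries known, so the counts are a description.

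The 48 ribosomal protein sites ranked high in both lines. Their median percentile was 99.0, 97.4 and 97.6 in CHP-134 replicates 1, 2 and 3 and 97.7 and 96.8 in IMR-32 replicates 1 and 3, against 93.1, 81.6, 79.7, 82.0 and 76.8 for the other 430 core sites. The sites were also wider (median 1606 bp against 1018 bp). RPL7A, of the large subunit, stood at 98.8, 98.9 and 99.6 against 99.4 and 96.6. RPS7, of the small subunit, stood at 98.5, 96.4 and 98.9 against 97.5 and 99.5. In the top 10% of all 5 lists there were 114 core sites, 45 of them at ribosomal protein genes. The 3 ribosomal protein sites that missed it were RPL4, RPL19 and RPL23A, which were named after their values were seen. RPL19 ranged from 16.6 in CHP-134 replicate 1 to 84.6 in replicate 2 and was at 77.8 and 76.2 in IMR-32 cells.

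Of the 32 ribosomal protein genes with no core site, 18 had no site within 1 kb in any of the 5 lists. They included RPL10, RPL14, RPL21 and RPL22 of the large subunit and RPS9, RPS16, RPS21 and FAU of the small subunit. The other 14 were listed in 1 library (4 genes), 2 libraries (8 genes) or 3 libraries (2 genes, RPSA and RPS12). RPS19 was in CHP-134 replicates 2 and 3 at percentiles of 69.9 and 62.2. RPLP0, RPLP1 and RPLP2, which form the ribosomal stalk, were in 1 or 2 lists each, at percentiles of 16.1 to 48.3.

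Translation and splicing genes were also found at core sites. The share over all protein-coding genes was 2.47% for a core site and 0.622% for an IMR-32-only site. Of 50 translation initiation and elongation factors, 10 (20%) had a core site, led by EEF2, EEF1G, EIF3D and EIF4G3. EIF3D, a subunit of the initiation factor eIF3, stood at 99.8, 99.3 and 97.2 in CHP-134 and 96.9 and 95.9 in IMR-32 cells. EIF4G3, a scaffold of the cap-binding complex, stood at 99.9, 96.1 and 98.6 against 95.6 and 93.4. EIF2S1, the alpha subunit of eIF2, had an IMR-32-only site at 62.8 and 10.0. Of 88 spliceosome genes, 13 (14.8%) had a core site, with SNRPB, RNPS1, SF3B3 and SF3B6 the highest. SF3B3, of the U2-associated complex that recognizes the branch point, reached 99.1, 97.6 and 98.5 against 95.8 and 93.4. The splicing genes CWC15 and SRSF3 had IMR-32-only sites, at percentiles of 17.6 to 41.7.

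Small nucleolar RNA host genes carry, in their introns, the RNAs that guide modification of ribosomal RNA. Of 27 such genes 7 (25.9%) had a core site, against 0.758% of 18592 long noncoding RNA genes. GAS5 stood at 98.9, 98.0 and 99.3 in CHP-134 cells and 98.4 and 97.5 in IMR-32 cells. SNHG15 was at 99.5, 99.1 and 99.3 against 97.9 and 96.9. SNHG17 and SNHG9 were the next 2, and the SNHG9 site was the one also counted for RPS2. SNHG5 had a CHP-134-only site, at 90.3, 62.5 and 15.7, where 0.296% of all long noncoding RNA genes had one.

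Genes of other growth functions were found less uniformly. Over all protein-coding genes the shares were 2.47% for a core, 0.935% for a CHP-134-only and 0.622% for an IMR-32-only site. Of 73 genes of ribosome biogenesis and RNA polymerase I, 6 (8.22%) had a core site, led by NPM1, the nucleolar protein nucleophosmin, at 97.3, 90.2 and 80.6 against 91.7 and 87.1, followed by POLR1D, TCOF1 and BYSL. In that list NOP14 was CHP-134-only and LTV1 and RRP12 were IMR-32-only. Of 113 cell cycle and replication genes, 10 (8.85%) had a core site. E2F3, an activator of S-phase genes, was the highest at 98.9, 99.8 and 95.8 against 97.3 and 99.0, and CDKN2C (on a site shared with FAF1), CDC7 and RFC1 followed. RPA2, a subunit of the single-strand DNA-binding protein RPA, was CHP-134-only at 97.0, 86.8 and 58.0, as were CDC16 and POLE3. RFC5, of the clamp loader, and CDK2 were IMR-32-only, at 72.5 and 44.6 and at 44.4 and 49.6. Of 116 DNA repair genes, 4 (3.45%) had a core site (EXO1, RAD51D, APEX1 and USP1), near the 2.47% of all protein-coding genes. EXO1, a nuclease of mismatch repair, stood at 96.7, 91.7 and 87.9 against 91.0 and 87.0. The repair genes BRIP1 and MUTYH had CHP-134-only sites. BRIP1, a helicase partner of BRCA1, varied between 1.42 and 89.8 among the 3 libraries. DCLRE1A, a nuclease of crosslink repair, was IMR-32-only at 49.4 and 49.2.

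Genes of mitochondrial ribosomes and the proteasome were at these sites about as often as protein-coding genes at large. Of 78 mitochondrial ribosomal protein genes only MRPL48 had a core site (97.3, 95.3 and 95.3 against 93.3 and 92.8). MRPS15 was CHP-134-only, and MRPS17 and MRPL9 were IMR-32-only. Of 33 proteasome genes PSMB4 had a core site, at 29.8 to 54.8 in all lists, and PSMB1 an IMR-32-only site. Of 14 subunits of the chaperonin CCT and of prefoldin, CCT7 and CCT4 had core sites, both above 94 in all 5 lists. No core or line-only site lay at any of 20 adrenergic or 25 mesenchymal neuroblastoma transcription factor genes, 19 neuroblastoma receptor and catecholamine genes or 64 replication-dependent histone genes. Of 39 HOX genes, HOXC13 had a core site (94.4, 55.4 and 69.5 against 78.1 and 68) and HOXA7 a CHP-134-only site (85.3, 42.7 and 62.0). For comparison with these counts, 2.47% of protein-coding genes had a core site, 0.935% a CHP-134-only site and 0.622% an IMR-32-only site. At these shares the lists of 19, 20 and 25 genes can hold none without differing from genes at large.

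**Figure D2:**
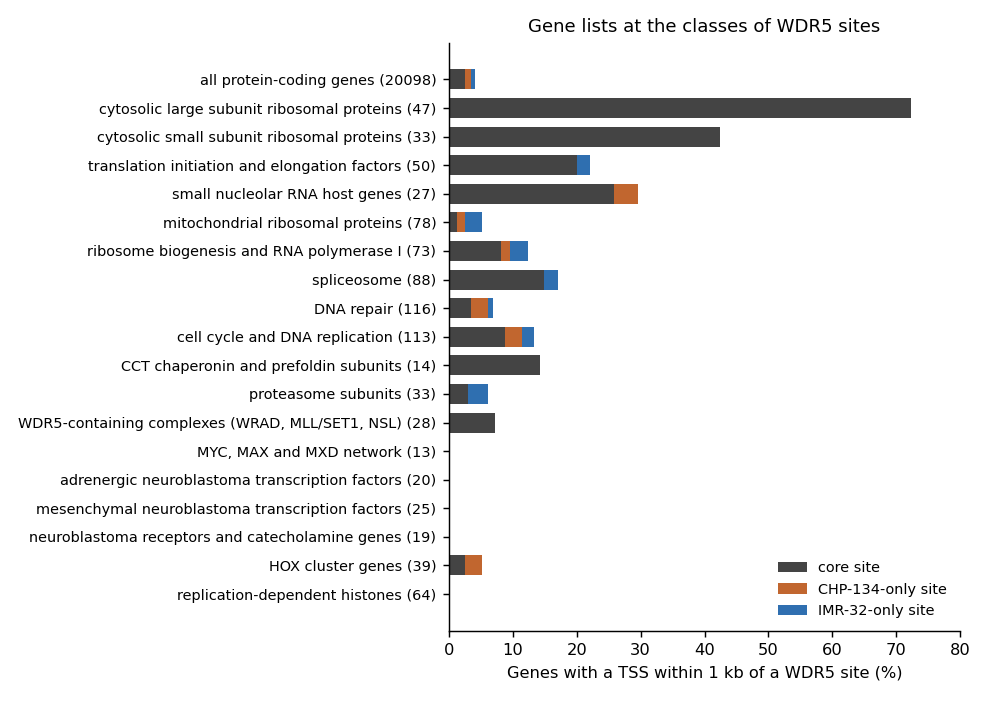
Share of the genes of each list with a TSS within 1 kb of a core, CHP-134-only or IMR-32-only site (horizontal axis, percent, stacked), with the number of genes in parentheses. The large-subunit ribosomal protein genes reached 72.3% and the small-subunit genes 42.4%, both with core sites only, against 2.47% of all protein-coding genes.

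Of the genes of WDR5's own complexes and partners, 2 of 28 (7.14%) had a core site, against 2.47% of all protein-coding genes. DPY30 of the WRAD module stood at 98.3, 93.9 and 95.4 in CHP-134 and 95.2 and 95.3 in IMR-32 cells. PHF20, a reader protein of the NSL complex, stood at 95.6, 79.1 and 72.4 against 54.8 and 57.0. WDR5 itself was listed in CHP-134 replicates 1 and 2 alone, at percentiles of 65.6 and 12.2. RBBP5 and ASH2L were listed in CHP-134 replicate 1 alone, at 72.2 and 14.3. None of 13 genes of the MYC, MAX and MXD network had a core or line-only site. Of all protein-coding genes 2.47% had a core, 0.935% a CHP-134-only and 0.622% an IMR-32-only site. So short a list can hold none without differing from genes at large. MYCN had a low site in 4 lists, at 0.102 and 0.180 in CHP-134 replicates 1 and 3 and 4.43 and 3.10 in IMR-32 replicates 1 and 3, and MYC and MAX had none. The 7 loci of the study's ChIP-QPCR panel of conserved WDR5 targets (RPL17, RPL35, RPS6, CCT7, EIF4G3, RNPS1 and SNHG15) were core sites, with percentiles of 93.4 or more in every library. Of the panel's other 4 loci, METTL1 was listed in CHP-134 replicate 1 and IMR-32 replicate 1 (10.3 and 21.9), RPS12 in CHP-134 replicate 1 and both IMR-32 lists (71.2, 54.3 and 11.4, over 2 sites), and SURF6 and RPL10 had no site within 1 kb.

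Core sites lay close to, and mostly just inside, genes. Of the 478 core sites 435 (91.0%) lay within 1 kb of a TSS, against 177 of 219 CHP-134-only sites (80.8%) and 124 of 218 IMR-32-only sites (56.9%). Farther than 10 kb from any TSS were 21 core sites (4.39%), 23 CHP-134-only sites (10.5%) and 51 IMR-32-only sites (23.4%). The median width was 1056, 712 and 462 bp, where a site merges the peaks of 5, 3 and 2 lists, so the classes' definition bears on its width. These are counts over sites, which are not replicates. Over all peaks of a list the share within 1 kb of a TSS was 75.2%, 84.6% and 77.5% in CHP-134 replicates 1, 2 and 3 and 82.2% and 83.0% in IMR-32 replicates 1 and 3. The lines overlapped (79.1% ± 4.91, SD, n = 3, against 82.6% ± 0.585, n = 2, exact permutation test, two-sided, p = 0.4).

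Summits of core sites lay mostly downstream of the TSS, and those of CHP-134-only sites lay on both sides of it. At core sites within 1 kb, the median summit position was 99, 112 and 97 bp downstream of the TSS in CHP-134 replicates 1, 2 and 3, and 103 and 111 bp downstream in the IMR-32 libraries. Between 62.3% and 65.3% of these summits were downstream in each library, and the single 100 bp bin from 100 to 200 bp downstream held 28.3% of the sites. Summits of CHP-134-only sites had medians of -43, -42 and -48 bp, upstream of the TSS, with 43.5%, 45.2% and 43.5% of them downstream, and 13% of them lay in the bin from 100 to 200 bp downstream. IMR-32-only summits had medians of 103 and 80.5 bp downstream, near those of core sites in the same libraries, with 20.2% in that bin.

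**Figure D3:**
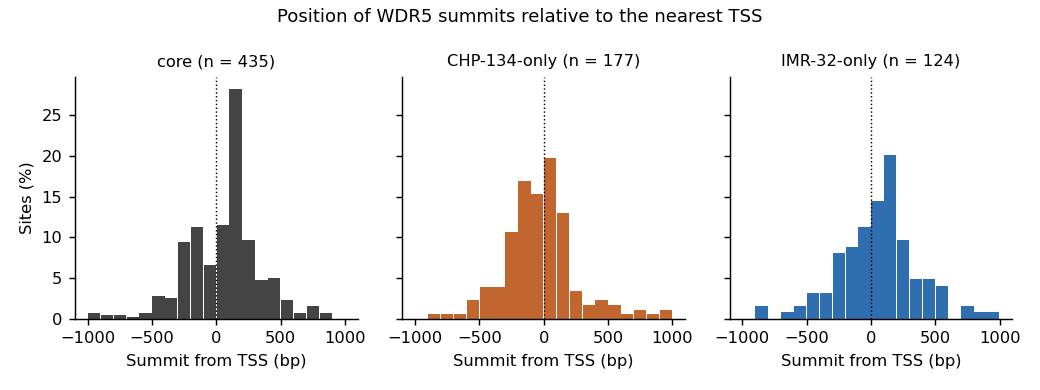
Distance of the median WDR5 summit of each site from the nearest TSS (horizontal axis, bp, positive downstream), for sites within 1 kb of a TSS. The vertical axis is the share of the class (percent) in bins of 100 bp. The median is over the libraries that listed the site. The core panel has its highest bar, 28.3%, at 100 to 200 bp downstream, whereas CHP-134-only sites spread on both sides of 0.

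The place of the summit within a core site was alike in both lines. The median distance between the summits of the same core site was 33.5 to 41 bp for pairs of CHP-134 libraries, 24 bp for the IMR-32 pair and 39 to 42 bp for pairs of 1 library from each line. Of 167 core sites whose summits agreed within 50 bp in each line, 145 had line medians within 50 bp of each other, 6 had medians 100 bp apart or more, and the largest gap was 138 bp. Across the 478 core sites, Spearman's rho of the percentiles was 0.819 to 0.836 within CHP-134, 0.946 between the IMR-32 libraries and 0.737 to 0.760 between lines. The sites are not independent replicates and the lists share their promoters, so these values are a description.

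Among core sites, 36 differed between the lines in relative strength. The fold values of the 478 core sites were brought to 1 distribution on the log2 scale and compared by limma with library as the replicate, so that a difference is one of place among core sites, not of the amount of WDR5. At an adjusted p under 0.05, 20 sites (4.18%) stood higher in CHP-134 cells and 16 (3.35%) in IMR-32 cells. The number depended on the scaling and on each IMR-32 library. With median centering 148 were called, 65 higher in CHP-134 cells and 83 in IMR-32 cells, so that the share higher in CHP-134 fell from 55.6% to 43.9%. With percentiles in place of folds limma called none (65 at an unadjusted p under 0.05). Without either IMR-32 library 2 were called, with the lone IMR-32 library assumed to vary like the CHP-134 group, and without CHP-134 replicate 1 or 3 there were 21 or 23.

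The largest difference in favor of CHP-134 cells was at PRRC2B, an RNA-binding protein linked to translation initiation. Its percentiles were 97.9, 94.7 and 95.3 in CHP-134 and 70.6 and 73.9 in IMR-32 cells, so the groups did not overlap, and its log2 difference was 2.37 (SE 0.32, limma, adjusted p = 0.00334). The call held under the other settings, with adjusted p-values from 1.75e-08 to 0.0284, except with percentiles, where the adjusted p was 0.0804. A site inside RNF220 (chr1:45096651-45098428), 42.6 kb from the nearest TSS, followed with 2.01 (SE 0.30, adjusted p = 0.00334). It stood at 99.4, 98.9 and 97.1 against 91.1 and 90.9, in the top 10% in both lines. SPOP, the substrate adaptor of a CUL3 ubiquitin ligase, stood at 97.0, 93.1 and 92.6 against 67.9 and 56.4 (log2 difference 1.90, adjusted p = 0.00334). E2F6, a repressor of the E2F family, stood at 97.1, 88.9 and 91.7 against 63.6 and 45.2 (1.72, adjusted p = 0.0080).

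Translation factors were among these sites. EIF4G1, the scaffold that joins the cap-binding protein to the ribosome, differed by 1.49 (adjusted p = 0.012) at percentiles of 98.7, 96 and 97.0 against 91.7 and 90.9. EIF4A2, an RNA helicase of the same complex, differed by 1.63 (adjusted p = 0.0110) at 96.4, 92.6 and 93.0 against 73.0 and 61.5. LACTB2, SMNDC1, BOLA1 and NUMBL made up the rest of the 10 largest among called sites, with differences of 1.5 to 1.74. SMNDC1, a splicing factor, had the widest gap between the IMR-32 libraries among these 10, at 51.7 and 12.7 against 95.2, 87.0 and 88.0.

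In the other direction the largest difference among called sites was at an intergenic site on chromosome 17 (chr17:48228245-48229840), 1 kb upstream of the TSS of PPP1R9B, which encodes an actin-binding protein. Its percentiles were 58.7, 48.3 and 52.1 in CHP-134 and 92.0 and 90.3 in IMR-32 cells (log2 difference -1.98, limma, adjusted p = 0.00334). MATR3, a nuclear matrix RNA-binding protein, stood at 29.3, 67.8 and 62.1 against 92.2 and 88.9 (-1.81, adjusted p = 0.0080). RDH11, a retinol dehydrogenase, stood at 31.2, 56.5 and 43.5 against 89.5 and 82.5 (-1.35). TEX2 stood at 68.7, 24.2 and 22.0 against 86.2 and 80.4 (-1.24). SOCS2-AS1, ZNF326, ZNF585A and 3 sites more than 1 kb from a TSS (chr17:59489867-59490908 in LINC02875, chr12:125139980-125141424 and chr5:170171140-170171886) completed the 10, with differences of -1.66 to -1.22. In percentiles the lines overlapped at ZNF326 (96.85, 83.85 and 78.31 against 94.09 and 92.05) and SOCS2-AS1 (92.07, 66.78 and 86.42 against 93.38 and 91.89). They also overlapped at the chromosome 12 site (89.86, 76.22 and 24.93 against 90.9 and 88.16). Among the alternatives, the call at ZNF585A held with median centering only. RPS15 was the 1 ribosomal protein gene among the 36 (-1.05, adjusted p = 0.0438), at 98.6, 95.8 and 95.5 against 99.7 and 99.8, so it stayed in the top 10% of every list.

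**Figure D4:**
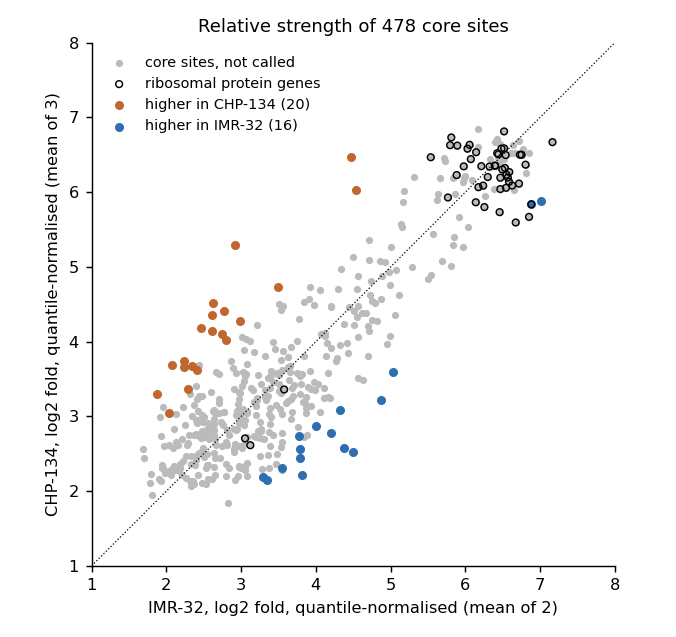
Quantile-normalised log2 fold of the 478 core sites, mean of 2 IMR-32 libraries (horizontal axis) against the mean of 3 CHP-134 libraries (vertical axis), with equality dotted. The 20 sites higher in CHP-134 and the 16 higher in IMR-32 cells are colored, and the circled ribosomal protein sites gather at the upper right, with 3 exceptions near 3 on both axes.

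The share of sites with an E-box differed between the classes. CACGTG lay within 100 bp of the summit at 74 of 478 core sites (15.5%, 95% Wilson interval 12.5% to 19%), 73 of 219 CHP-134-only sites (33.3%, 27.4% to 39.8%) and 11 of 218 IMR-32-only sites (5.05%, 2.84% to 8.81%), against 5.70% of 20014 promoters in windows of the same 201 bases around the TSS. The intervals cover counting error over sites only. Within 1 kb of a TSS the shares were 15.9%, 35.0% and 4.84%, in the same order. At the 48 core sites of ribosomal protein genes there was none, so all 74 belonged to the other 430 core sites (17.2%). Over all peaks of a list the share was 14.9%, 18.5% and 18.4% in CHP-134 replicates 1, 2 and 3 and 12.8% and 11.8% in IMR-32 replicates 1 and 3. Every CHP-134 list lay above both IMR-32 lists (17.3% ± 2.05, SD, n = 3, against 12.3% ± 0.703, n = 2, exact permutation test, two-sided, p = 0.2).

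Core sites called stronger in 1 line were few, and their calls did not hold with percentiles. Of the 20 that stood higher in CHP-134 cells 6 (30.0%) held CACGTG, EIF4G1 and DHX40 among them, and of the 16 that stood higher in IMR-32 cells none did, against 15.4% of the 442 not called. The median log2 difference was 0.30 over core sites with CACGTG, -0.051 over those without and -0.17 over ribosomal protein sites, against 0.004 over all 478. No test was made between these groups of sites.

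Other motifs were counted in the same windows. The GC box GGGCGG lay at 40.6% of core, 55.7% of CHP-134-only and 20.6% of IMR-32-only sites, against 53.4% of promoters. The ETS motif CCGGAAGT was at 1.46%, 0.457% and 0.917% against 5.07% of promoters. The NRF1 motif GCGCATGC was at 0.837%, 3.65% and 0.917% against 2.91%. The YY1 motif AAGATGGC was at 1.26%, 1.83% and 1.38% against 3.75%, and TCGCGA at 1.67%, 3.20% and 1.38% against 3.17%. AGATAA, which GATA factors bind, was at 4.18%, 4.11% and 6.88% against 3.46%, and at 11.7% of the 94 IMR-32-only sites farther than 1 kb from a TSS. TGACTCA, the AP-1 motif, was at 0.457% to 1.88% of each class against 2.14% of promoters. All motifs were searched on both strands, summit windows were set against windows centered on the TSS, and a match is a string of letters and not a binding event. The median GC content was 63.7%, 68.7% and 55.7% in the 3 classes and 66.2% in promoters, so base composition moved with the classes, and its part in the motif shares was not tested.

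N-MYC peak lists, which had no part in choosing the sites, showed where N-MYC was called at them. Of the CHP-134-only sites, 95.4%, 86.8% and 93.6% overlapped a peak in N-MYC replicates 1, 2 and 3 of CHP-134 cells, and 60.7% and 49.3% in N-MYC replicates 1 and 2 of IMR-32 cells. The groups did not overlap (91.9% ± 4.57, SD, n = 3, against 55.0% ± 8.07, n = 2, exact permutation test, two-sided, p = 0.1, which is the floor of this design). At core sites the shares were 87.0%, 75.7% and 83.5% against 74.5% and 58.4% (82.1% ± 5.78 against 66.4% ± 11.4, exact permutation p = 0.2). The N-MYC lists of CHP-134 cells were longer, with 9125 to 15286 peaks against 5242 and 8286 in IMR-32 cells. When as many of the strongest peaks were taken from each N-MYC list as the shortest held, the difference at core sites turned from 15.7 to -3.87 percentage points, while at CHP-134-only sites it stayed positive, at 17.2. The 5673 other sites overlapped at 60.2% against 34.6%.

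IMR-32-only sites overlapped N-MYC peaks less often than the other 2 classes in each N-MYC list. They were also the narrowest (median 462 bp, against 1056 bp for core and 712 bp for CHP-134-only sites), and the part of width was not tested. They overlapped at 33.0%, 22.0% and 27.1% in the CHP-134 N-MYC lists and at 41.7% and 26.1% in those of IMR-32, so the ranges overlapped (27.4% ± 5.51, n = 3, against 33.9% ± 11, n = 2, exact permutation p = 0.5). Without IMR-32 N-MYC replicate 1 the difference turned from -6.57 to 1.22 percentage points. In the IMR-32 N-MYC lists the 5673 other sites overlapped at 40.1% and 29.1%, close to the IMR-32-only sites. In none of the 5 N-MYC lists were 100 of 218 IMR-32-only sites, 35 of 478 core sites and 7 of 219 CHP-134-only sites. The same held for 1316 of the 5673 other sites. Every site with CACGTG, 74 of 74 core, 73 of 73 CHP-134-only and 11 of 11 IMR-32-only sites, was in at least 1 N-MYC list. Without CACGTG, 369 of 404 core, 139 of 146 CHP-134-only and 107 of 207 IMR-32-only sites were.

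**Figure D5:**
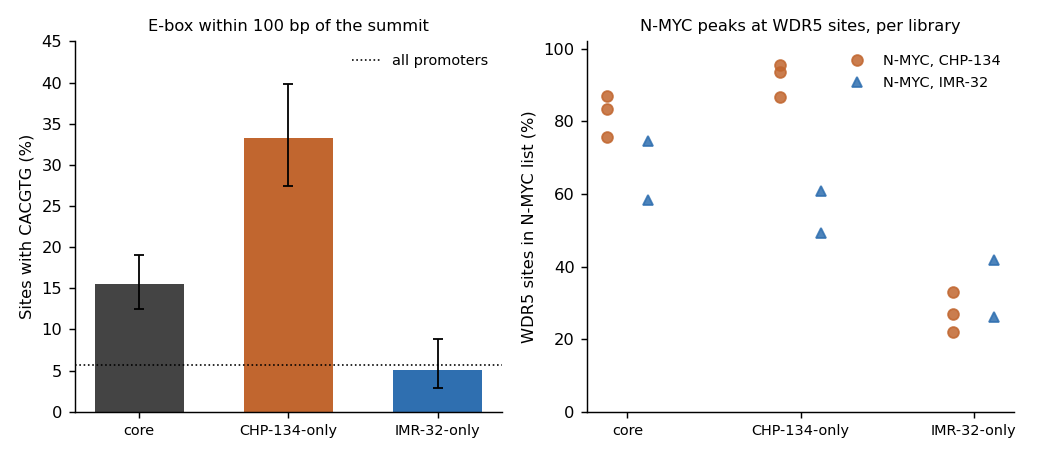
Left, share of each class with CACGTG within 100 bp of the summit (percent, bars from 0, with 95% Wilson intervals over sites and the share of all promoters dotted); right, share of each class overlapping each N-MYC peak list, 1 point per library. CHP-134-only sites had the most E-boxes (33.3%), and their CHP-134 points (86.8% to 95.4%) lay above their IMR-32 points (49.3% and 60.7%).

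The strongest CHP-134-only site lay 312 bp upstream of RNF130 (chr5:179498884-179499941), a RING-domain protein, at percentiles of 97.7, 93.7 and 93.1. The next was inside IGF2R, in an exon of its antisense transcript AIRN (chr6:160426790-160427884), 1.36 kb from the AIRN TSS, at 97.8, 93.4 and 91.3. MAGED2 (chrX:54834588-54835317, middle of the site in intron 1), of the MAGE family, stood at 97.6, 91.9 and 92.6. It was in none of the N-MYC lists. A site on chromosome 15 (chr15:82824699-82825048), 103 kb from the nearest TSS, stood at 95.9, 90.1 and 88.0 and was in none either. ATL3, an atlastin of the endoplasmic reticulum, stood at 96.6, 87.8 and 88.3. TASOR2 (92.4, 80.8 and 88.8), MSL2 of the MSL acetyltransferase complex (90.5, 86.4 and 84.3) and GTF2A1, a subunit of the general factor TFIIA (91.2, 78.3 and 90), were called for N-MYC in all 5 N-MYC lists. A long noncoding RNA gene on chromosome 21 (chr21:11098574-11099272) and an intergenic site on chromosome 3 (chr3:149967716-149968486) completed the 10.

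The strongest IMR-32-only sites were mostly away from TSSs. Of the 10 highest, 6 lay more than 1 kb from a TSS, at 5.59 to 108 kb. The highest was on chromosome 8, 39.0 kb from a TSS, at 89.6 and 86.6. GSTM1, a glutathione S-transferase, followed (chr1:110230069-110231103, middle of the site in intron 1) at 89.2 and 81.7. An intergenic site 108 kb from MAGI3 (chr1:113824730-113825862) stood at 86.6 and 80.8. OAZ2 (chr15:64994814-64995423, intron 1), an inhibitor of ornithine decarboxylase, stood at 83.4 and 80.1, and ZNF665 (chr19:53696135-53696661, intron 1), a zinc finger protein, at 85.2 and 72.9. The other 5 had percentiles of 69.6 to 88.6. None of the 10 was in both IMR-32 N-MYC lists, against 54 of all 218 IMR-32-only sites. With so few sites this may not differ from the class, and it was not tested.

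Chromosome 2 held 43 of the 218 IMR-32-only sites (19.7%), against 6.69% of core and 7.31% of CHP-134-only sites. Of these, 25 lay in 2 windows that held no core or CHP-134-only site, 12 at 14 to 17 Mb, which contains MYCN, and 13 at 66 to 68 Mb. Of the 25 sites 5 (20%) lay within 1 kb of a TSS, NBAS and ETAA1 among them, against 119 of 193 (61.7%) elsewhere. Their fold was low and their significance was not. The median fold percentile was 2.48 and 1.35 in IMR-32 replicates 1 and 3, against 51.2 and 40.5 for the 193 other sites, whereas the median percentile of the -log10 q was 53.6 and 40.1 against 51.9 and 40.9. The sites were also wider (median 705 bp against 444 bp). In the window at 14 to 17 Mb CHP-134 replicates 1 and 3 listed 14 and 6 peaks, at median percentiles of 0.153 and 0.209, and replicate 2 listed none. IMR-32 replicates 1 and 3 listed 30 and 18 there, at 1.95 and 1.51, and 26 and 19 at 66 to 68 Mb, where the CHP-134 lists held 3, 2 and 0. The number of gene copies in these windows was not tested. Without the 25 sites the CACGTG share of the class was 4.66%, against 5.05% with them.

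The WDR5 lists of CHP-134 cells treated with the study's compound for 4 h had no part in choosing the sites. They held 5973, 15 and 401 peaks in replicates 1, 2 and 3, and so differed widely in length. In that order they overlapped 51.5%, 2.72% and 23% of core sites, 47.0%, 0% and 13.7% of CHP-134-only sites and 9.17%, 0% and 0.917% of IMR-32-only sites. Replicates 1 and 3 held a larger share of CHP-134-only than of IMR-32-only sites, and replicate 2 held no line-only site. The labels name the compound in more than 1 way, and it is not identified here.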

How the data were processed

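The authors removed adapters with Cutadapt, aligned reads to hg19 with Bowtie2 and called peaks per library with MACS2 at a q-value of 0.05. Tool versions, control libraries and reads per library are not given in the sources used here. The deposited peak lists give for each peak a score, a fold enrichment (ratio) over local background, a −log10 p-value and a −log10 q-value, and a summit. Scores and −log10 p-values as deposited were not used in any result.

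Peaks of the 5 WDR5 lists sharing at least 1 bp were merged into sites. A site's percentile was the rank of the fold of its strongest peak in its list. TSSs came from basic transcripts of GENCODE 44 (lift37). Core sites were compared by limma 3.58.1 (R 4.3.3) on quantile-normalised log2 fold with Benjamini-Hochberg adjustment over 478 sites, after a check on simulated data. Shares per library were compared by exact permutation over libraries (numpy 2.4.6), and Wilson intervals were computed with scipy 1.17.1. Named were the 12, 10 and 10 sites of highest percentile in the core, CHP-134-only and IMR-32-only classes, the 10 called core sites with the largest difference in each direction, up to 4 genes per list and class, WDR5, MYCN, the WRAD genes and the ChIP-QPCR panels. DHX40, RPS15, RPL36, NBAS, ETAA1 and the ribosomal protein genes without a core site, or with one outside the top 10% of a list, were chosen after their values were seen. The members and lists were chosen with earlier results of these data known. IgG samples were not analysed here. Alternatives covered the overlap, the q-value, list length, distances, scaling and leaving out each library. Some genes are not reported here.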

Additional observations from a re-analysis of the deposited data

How the results depend on the processing

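Class counts depended on list length and on single libraries. With as many of the strongest peaks from each list as the shortest held, there were 342 core, 263 IMR-32-only and 89 CHP-134-only sites, and with 2 of 3 CHP-134 libraries sufficient there were 621 core and 826 CHP-134-only sites. Leaving out 1 library gave 238 to 560 CHP-134-only, 232 to 604 IMR-32-only and 483 to 559 core sites. Equal list length for N-MYC reversed the difference at core sites (-3.87 percentage points, exact permutation p = 0.1), and leaving out 1 N-MYC library moved that at IMR-32-only sites between -14.4 and 1.22. With 50 bp or 250 bp on each side of the summit, in alternatives chosen after seeing the data, CACGTG was at 12.1% or 24.5% of core and 21% or 46.6% of CHP-134-only sites, and at 12.8% of IMR-32-only sites with 250 bp (promoters 3.30% or 11%). Leaving out 1 library gave 25% to 34.5% of CHP-134-only sites.

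Core sites of unequal strength numbered 148 with median centering, 0 with percentiles (65 at an unadjusted p under 0.05) and 2 to 39 without 1 library. Replicate numbers are shared between the lines only by name: the deviations of same-numbered libraries correlated at 0.000 and -0.108, and a replicate block called 59 sites, 34 of the 36 among them. The cause of these changes was not tested. Of the 20 called core sites with the largest differences, all 20 kept their call with median centering and 19 with the replicate block. Without CHP-134 replicate 1, 5 lost it, and with percentiles all 20 did. None turned its direction, but the sites were picked for large differences in these same libraries. Unknown read depth limits every statement on sites outside a list.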
